A study of Mus musculus with 6 samples.

Results

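RNA abundance of 61 genes of the BMP, Nodal and TGF-beta pathway was followed as mouse embryonic stem cells were turned into neurons. The genes were chosen by a rule on names, as every gene in the tables named as a BMP or GDF ligand, Nodal, an activin subunit, a TGF-beta ligand, a receptor or co-receptor of these ligands, a SMAD, one of several secreted antagonists, an Id gene or Tgfbi, and they make up 61 of 46517 gene IDs. All 6 libraries come from E14TG2a, a wild-type feeder-free mouse embryonic stem cell line, and no allele, transgene or added agent distinguishes them beyond the differentiation itself. The mESC libraries are from cells kept on gelatin in medium with serum and the cytokine LIF. The NPC libraries are from neuronal progenitors, and the NC libraries from the last stage, which the series describes as glutamatergic pyramidal neurons. Differentiation followed the method of Bibel and colleagues. Each group has 2 libraries, called replicates 1 and 2, and all of them derive from 1 cell line. The cell type label of all 6 samples still reads embryonic stem cells and the letters NC are not spelled out, so groups rest on the sample titles alone.

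Ligands of this family are secreted dimers that bring together type I and type II receptor kinases at the cell surface. The type I receptor then phosphorylates receptor SMADs: SMAD1, SMAD5 and SMAD9 behind BMP receptors, and SMAD2 and SMAD3 behind Nodal, activin and TGF-beta receptors. These join SMAD4 in the nucleus, while SMAD6 and SMAD7 inhibit the cascade. In mouse embryonic stem cells BMP4 acts together with LIF to hold off differentiation, in part through Id genes, and Nodal signalling needs the co-receptor encoded by Tdgf1 (Cripto). In the developing neural tube BMPs from the roof plate pattern the dorsal side, and secreted antagonists limit their reach.

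The tables give abundance as TPM, transcripts per 1000000, a level per length of transcript that can be set side by side between genes. Aligned sequence, inferred from coverage and FPKM, came to 1.57 and 2.27 Gb for the mESC pair and 2.25 and 1.99 Gb for the NPC pair. For the NC pair it came to 1.79 and 2.13 Gb. Across libraries, between 16667 and 19040 genes reached 1 TPM. The replicates differed with an SD of the log2 difference of 0.50 for mESC, 0.41 for NPC and 0.60 for NC. The tables hold no read counts and so allow no counting intervals, and all 37 mitochondrial genes are listed at 0 in all 6 libraries. A value of 0 is therefore given as listed, without a fold where both libraries of a group are at 0. The sum of 5 mESC markers (Pou5f1, Nanog, Zfp42, Esrrb, Klf4) was 3214 and 3821 TPM in mESC, 24.3 and 18.5 TPM in NPC and 19.6 and 24.2 TPM in NC. The sum of 5 neuron markers (Tubb3, Map2, Snap25, Syt1, Slc17a6) was 88.4 and 122 TPM in mESC, 450 and 734 TPM in NPC and 2893 and 2605 TPM in NC. The sum of 5 neural progenitor markers (Pax6, Nes, Sox1, Hes5, Fabp7) was 26.9 and 43.8 TPM in mESC, 774 and 667 TPM in NPC and 1099 and 341 TPM in NC, so NC replicate 1 lay above both NPC libraries and NC replicate 2 below them. Of 6 markers of cortical pyramidal neurons, Tbr1, Emx1 and Fezf2 lay under 1 TPM in all 6 libraries, and Neurod2 and Neurod6 had 20.7 and 14.7 TPM in NC replicate 1, against 0.219 TPM and a listed 0 in NC replicate 2. The other one, Slc17a7, had 2.86 and 2.07 TPM in mESC, 0.382 and 0.712 TPM in NPC and 3.21 and 1.69 TPM in NC, and was higher in NC against NPC (1.13 on the log2 scale, limma adjusted p = 0.044). These are bulk samples, in which fewer cells of a type and less RNA per cell cannot be told apart.

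Of the 61 genes, 50 reached 1 TPM in at least 2 libraries and were tested, among 20232 genes in all. The test was limma on log2(TPM + 1), with a Benjamini-Hochberg adjusted p under 0.05 over all tested genes as the threshold, and fold changes are on that scale, which understates changes of low genes. In NPC against mESC 23 pathway genes were higher and 13 lower, together 36 of 50, while 40.0% of all tested genes passed (26.0% higher and 14.0% lower). In NC against NPC 13 were higher and 8 lower, 21 of 50, against 25.3% of all genes (15.2% higher and 10.1% lower). In NC against mESC 27 were higher and 11 lower, 38 of 50, against 59.9% of all genes (37.8% higher and 22.1% lower). Their median log2 fold change was 0.96 in NPC against mESC, 0.22 in NC against NPC and 0.80 in NC against mESC, beside 0.18, 0.11 and 0.31 over all tested genes in the same order. Scaling by the median of ratios brought the medians of all genes to -0.01, 0.04 and 0.05. With that scaling the higher and lower pathway genes numbered 22 and 13, 11 and 10, and 22 and 12 in the same order of comparisons, and with quantile normalization 21 and 13, 9 and 11, and 22 and 14. Over all genes the share of calls that were higher was 65.0%, 60.1% and 63.2% as deposited, 52.7%, 54.6% and 52.3% with median-of-ratios scaling, and 51.2%, 47.7% and 47.2% with quantile normalization.

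The calls of NC against NPC depended on single libraries. Under 19 alternatives (other pseudocount, filter, unit, scaling or model, and each library left out), 23 of 36 pathway calls in NPC against mESC and 28 of 38 in NC against mESC were kept in all alternatives that tested the gene. In NC against NPC 1 of 21 was. Fewer pathway genes passed in NC against NPC without either NPC library or either NC library, and fewest without an NPC library. The same held over all tested genes. No call reversed its direction. Each library was left out in 2 fits, 1 with the filter applied again and 1 with the tested genes kept the same. A call is given below as lost without a library where either fit lost it. Only the second fit lost the calls of Bmp1, Smad4, Tgfb1 and Tgfbr3 in NPC against mESC. The same held for Inhbb, Id1 and Id3 in NC against NPC, and for Gdf15 and Tgfbr2 in NC against mESC. Losses under the other alternatives are given below for only some of the calls. With 2 libraries a group, a permutation test cannot reach p = 0.05, and the p-values measure the spread between these libraries, which the labels call biological replicates without saying what separates them.

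Across both steps, 5 of the 50 tested genes were higher at each step, 7 higher then lower, 11 higher and then not called, 10 lower and then not called, and 3 lower then higher. Another 5 were higher in NC against NPC alone, 1 was lower there alone, and 8 passed at neither step. By mean TPM, 20 genes were highest in NC, 17 in NPC and 13 in mESC. Neither set of counts was made over all tested genes, of which 40.0% passed at the first step and 25.3% at the second. The 11 untested genes were the ligands Bmp3, Bmp5, Bmp10, Bmp15, Gdf2, Gdf5, Gdf6, Gdf7 and Gdf10 and the type I receptors Acvr1c and Acvrl1. The highest value of any of them was 4.94 TPM, for Gdf10 in NPC replicate 2, and Bmp15, an oocyte ligand, was listed at 0 in all 6 libraries.

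**Figure D1:**
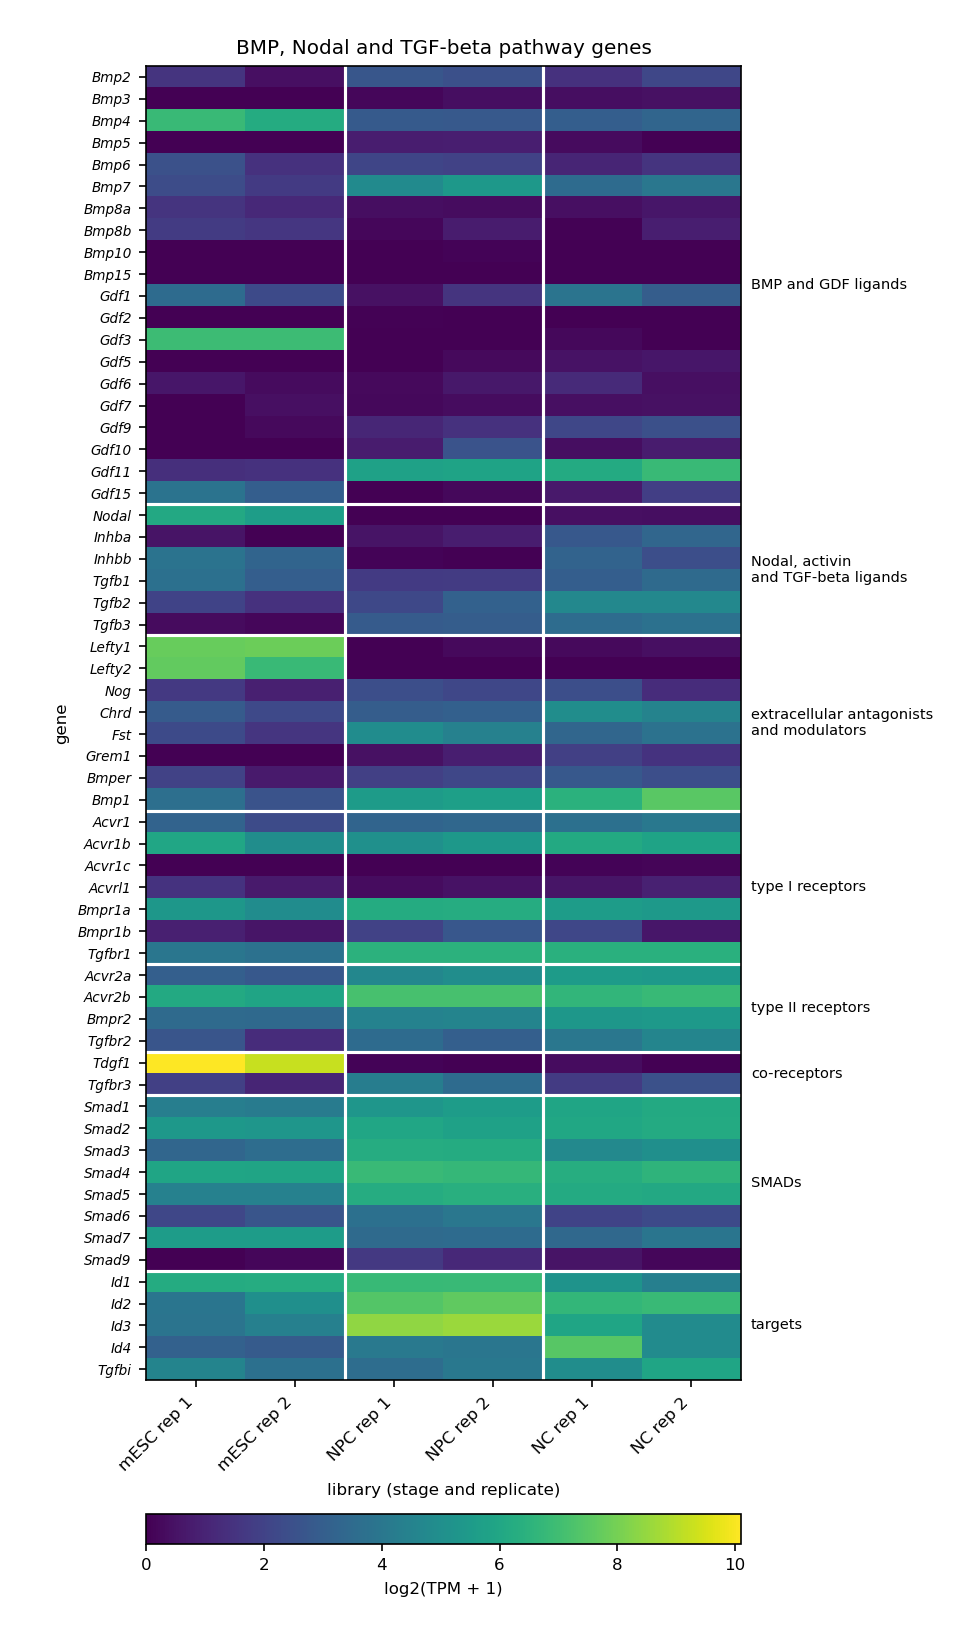
Abundance of the pathway genes by library, as log2(TPM + 1) on the colour scale, with genes in rows by role and libraries in columns by stage. Tdgf1, Lefty1, Lefty2, Gdf3 and Nodal are bright in both mESC libraries and dark in the 4 others, and the 11 untested genes, 9 of them BMP and GDF ligands, are dark throughout, apart from Gdf10 in NPC replicate 2.

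Nodal, its relative Gdf3, its co-receptor gene Tdgf1 and the inhibitor genes Lefty1 and Lefty2 fell together in NPC against mESC. Nodal, the ligand (chr10:61417972-61425338), had 67.0 and 47.6 TPM in mESC, was listed at 0 in both NPC libraries and had 0.315 and 0.308 TPM in NC. Tdgf1, its co-receptor (chr9:110939603-110946158), had 1096 and 607 TPM in mESC, 0.0664 TPM and a listed 0 in NPC, and 0.275 TPM and a listed 0 in NC. Gdf3, a relative of Nodal that also needs Tdgf1 (chr6:122605403-122610087), had 119 TPM in both mESC libraries, was listed at 0 in NPC and had 0.169 TPM and a listed 0 in NC. All 3 genes had both mESC libraries far above the 4 later ones, with no overlap between mESC and either later group. Lefty1, which encodes a secreted Nodal inhibitor (chr1:180935022-180938400), had 213 and 224 TPM in mESC, a listed 0 and 0.204 TPM in NPC, and 0.196 and 0.341 TPM in NC. Lefty2, the neighbouring gene for a second Nodal inhibitor (chr1:180893108-180899103), had 204 and 114 TPM in mESC and was listed at 0 in the other 4 libraries. The antagonists thus followed the ligands, high in mESC and near 0 after it.

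In NPC against mESC the log2 fold change was -9.63 ± 0.33 (SE) for Tdgf1 (limma adjusted p = 1.94e-05) and -7.64 ± 0.24 for Lefty1 (adjusted p = 1.43e-05). Nodal (adjusted p = 3.89e-05), Gdf3 (1.95e-05) and Lefty2 (3.62e-05) also passed, against groups listed at 0. In NC against mESC Tdgf1 changed by -9.50 ± 0.33 (adjusted p = 1.34e-05), Lefty1 by -7.44 ± 0.24 (1.02e-05), Gdf3 by -6.80 ± 0.24 (1.36e-05) and Nodal by -5.45 ± 0.27 (2.77e-05), and Lefty2 passed with an adjusted p of 2.12e-05. None of the 5 passed in NC against NPC, where their limma adjusted p ranged upward from 0.329. These calls were kept in each of the 17 alternatives that tested the genes. The other 2, in which an mESC library was left out and the filter applied again, did not test them, since they then reach 1 TPM in a single library. By annotation, 17.9% of the 50-base stretches of Lefty1 transcripts are also in Lefty2 and 12.0% the other way, and 8.86% of those of Tdgf1 are in the pseudogene Tdgf1-ps1, so part of the reads of these genes could have been assigned to either copy.

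The upstream sequences of Nodal and Tdgf1 are shown because these are the ligand and the co-receptor that fell together, and because FOXH1, the DNA-binding partner of SMAD2 in Nodal signalling, has a known core motif, AATNNACA, that was searched on both strands. Each is the 250 bases before the gene's start in RefSeq (GRCm38.p6), 5′ to 3′ on the gene's strand, with matches in capitals: chr10:61417722-61417971 on the plus strand for Nodal, and chr9:110946159-110946408 on the minus strand for Tdgf1.
Nodal: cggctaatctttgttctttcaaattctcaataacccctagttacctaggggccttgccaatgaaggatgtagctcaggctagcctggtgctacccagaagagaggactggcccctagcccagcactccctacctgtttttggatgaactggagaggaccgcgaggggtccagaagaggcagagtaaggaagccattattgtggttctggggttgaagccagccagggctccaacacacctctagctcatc
Tdgf1: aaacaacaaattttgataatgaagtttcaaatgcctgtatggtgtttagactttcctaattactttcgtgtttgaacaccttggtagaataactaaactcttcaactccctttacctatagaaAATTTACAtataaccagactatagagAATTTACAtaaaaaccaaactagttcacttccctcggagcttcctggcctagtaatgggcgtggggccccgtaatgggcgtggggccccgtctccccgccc
The Tdgf1 window held AATTTACA at 2 places, starting 127 and 101 bases before the start, and the Nodal window held no match. The motif was in 3592 of 32851 such windows over all genes (10.9%) and in 1 of 49 windows of 41 pathway genes, that of Tdgf1. A match is a description of letters and not of binding.

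Foxh1 itself, which is not among the 61 genes, had 71.6 and 52.1 TPM in mESC, 0.872 and 1.51 TPM in NPC, and 0.403 TPM and a listed 0 in NC, with both mESC libraries above all others (log2 fold change in NPC against mESC -4.84 ± 0.32, adjusted p = 0.000121). The receptors and SMADs that carry a Nodal signal did not share this fall. Acvr1b, the type I receptor for Nodal and activin, had 62.6 and 29.9 TPM in mESC, 32.2 and 40.5 TPM in NPC and 68.6 and 57.5 TPM in NC, with overlapping mESC and later values and no call (adjusted p from 0.136 to 0.586). Acvr2b, the type II receptor, Smad2 and Smad4 were higher in NPC than in mESC, as given with their groups.

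**Figure D2:**
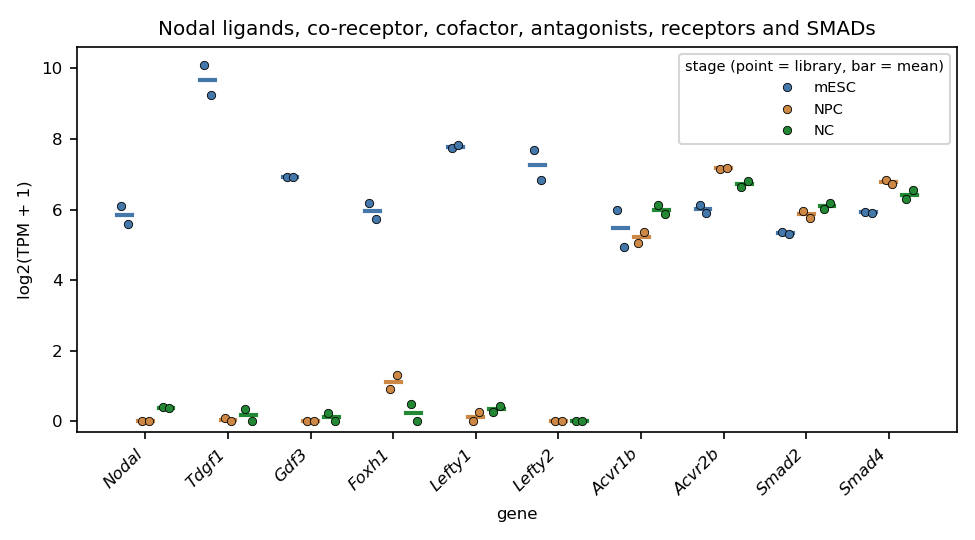
Nodal signalling genes by stage as log2(TPM + 1), with a point for each library and a bar for the mean of 2 libraries (blue mESC, orange NPC, green NC). Nodal, Tdgf1, Gdf3, Foxh1, Lefty1 and Lefty2 sit high in mESC alone, while Acvr1b, Acvr2b, Smad2 and Smad4 stay above 4 on this scale in all 6 libraries.

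Among BMP and GDF ligands, different genes made up most of the summed level before and after the first step. The summed level of the 20 ligand genes was 273 and 214 TPM in mESC, 100.3 and 122 TPM in NPC and 112 and 162 TPM in NC. Gdf3 and Bmp4 together led in mESC, where Gdf3 made up 43.7% and 55.7% of the sum and Bmp4 41.2% and 34.5%. In NPC and NC the leading ligand was Gdf11, at 53.9% and 46.2% of the sum in NPC and 62.9% and 71.0% in NC, against 0.582% and 0.791% in mESC. Bmp7 made up 27.2% and 33.1% of the sum in NPC, 9.33% and 9.26% in NC, and 1.49% and 1.08% in mESC. These shares are of summed TPM over genes and were not tested.

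**Figure D3:**
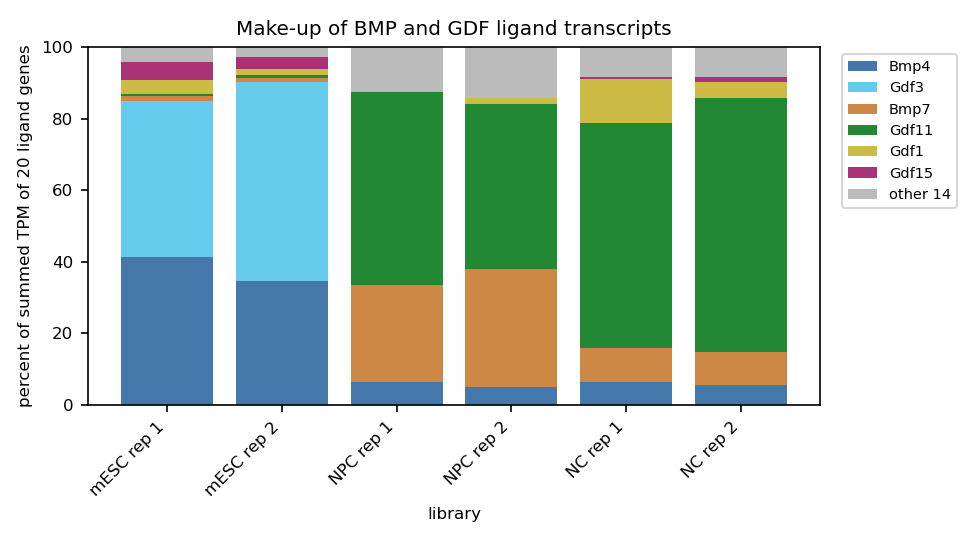
Share of each ligand in the summed TPM of the 20 BMP and GDF ligand genes, in percent, 1 bar a library, stacked to 100. Gdf3 (light blue) and Bmp4 (dark blue) fill most of both mESC bars, Gdf11 (green) 46.2% to 71.0% of the other 4 bars, and Bmp7 (orange) is widest in the NPC bars, at 27.2% and 33.1%.

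Bmp4, the BMP that supports self-renewal of mouse stem cells together with LIF (chr14:46383520-46390669), had 112 and 73.7 TPM in mESC, 6.30 and 6.03 TPM in NPC and 7.02 and 8.91 TPM in NC. Both mESC libraries lay above the other 4. The log2 fold change was -3.68 ± 0.25 (SE, adjusted p = 0.000142) in NPC against mESC and -3.37 ± 0.25 (adjusted p = 0.000102) in NC against mESC, and 0.32 ± 0.25 (adjusted p = 0.401) in NC against NPC. Gdf11, a ligand known to restrain neuron production and to set positional identity along the body axis (chr10:128882295-128891718), had 1.59 and 1.69 TPM in mESC, 54.1 and 56.6 TPM in NPC and 70.4 and 115 TPM in NC. The 4 later libraries were all far above both mESC libraries, and both NC libraries above both NPC libraries. Gdf11 was higher by 4.42 ± 0.25 on the log2 scale in NPC against mESC (adjusted p = 7.36e-05) and by 5.11 ± 0.25 in NC against mESC (adjusted p = 2.7e-05). Its further difference in NC against NPC, 0.69 ± 0.25, did not pass (adjusted p = 0.0875), and passed without NC replicate 1 (adjusted p 0.0281 and 0.0308).

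The upstream windows of Bmp4 and Gdf11 are shown as those of the ligands that led before and after the first step. They were searched on both strands for GGCGCC, the GC-rich element bound by SMADs behind BMP receptors, and neither holds it. They are chr14:46390670-46390919 and chr10:128891719-128891968, both on the minus strand (GRCm38.p6, RefSeq, 5′ to 3′).
Bmp4: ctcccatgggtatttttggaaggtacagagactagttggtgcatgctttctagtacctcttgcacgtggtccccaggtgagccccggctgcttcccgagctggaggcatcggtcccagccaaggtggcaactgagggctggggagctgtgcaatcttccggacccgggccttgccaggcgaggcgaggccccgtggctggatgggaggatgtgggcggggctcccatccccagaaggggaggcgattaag
Gdf11: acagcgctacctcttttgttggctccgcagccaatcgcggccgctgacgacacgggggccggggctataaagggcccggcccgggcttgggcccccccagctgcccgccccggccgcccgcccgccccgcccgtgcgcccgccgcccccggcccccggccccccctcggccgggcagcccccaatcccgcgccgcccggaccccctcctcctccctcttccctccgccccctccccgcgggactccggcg
Their G and C bases made up 63.2% of the Bmp4 window and 81.2% of the Gdf11 window. That the letters are absent from these windows bears on nothing beyond them.

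Bmp7, a ligand of the roof plate and of many epithelia (chr2:172868012-172940321), peaked in NPC, with 4.06 and 2.30 TPM in mESC, 27.3 and 40.5 TPM in NPC and 10.4 and 15.0 TPM in NC. No groups overlapped. It was higher in NPC against mESC by 3.07 ± 0.32 on the log2 scale (adjusted p = 0.000717) and lower in NC against NPC by -1.34 ± 0.32 (adjusted p = 0.0284), and it was still higher in NC against mESC by 1.73 ± 0.32 (adjusted p = 0.00422). The call in NC against NPC was lost without either NPC or either NC library. Without either mESC library it was lost only with the tested genes kept the same. The summed level of 5 roof plate markers moved in the same directions. The sum of Lmx1a, Msx1, Wnt1, Wnt3a and Rspo1 was 6.20 and 4.83 TPM in mESC, 89.5 and 202 TPM in NPC and 13.5 and 19.0 TPM in NC. Msx1 (51.6 and 98.3 TPM) and Wnt1 (29.5 and 91.2 TPM) made up most of the NPC sums. Of the 5 markers, 4 were higher in NPC against mESC, where Rspo1 did not pass. All 5 were lower in NC against NPC, with Lmx1a listed at 0 in NC. Their part in the Bmp7 values was not tested.

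Gdf15, a ligand induced by cell stress, had 13.4 and 7.11 TPM in mESC, a listed 0 and 0.161 TPM in NPC and 0.633 and 2.69 TPM in NC, lower in NPC against mESC (-3.33 ± 0.46, adjusted p = 0.00212) and in NC against mESC (-2.14 ± 0.46, adjusted p = 0.00757). Both mESC libraries lay above all later ones. The NC call was lost without mESC replicate 1 (adjusted p = 0.0691). Gdf1, a ligand that acts with Nodal in left-right patterning, had 10.7 and 3.81 TPM in mESC, 0.382 and 1.90 TPM in NPC and 13.7 and 6.96 TPM in NC, so NPC lay below both other stages, whose values overlapped. Its log2 fold change was -1.91 ± 0.57 in NPC against mESC (adjusted p = 0.037) and 2.44 ± 0.57 in NC against NPC (adjusted p = 0.0251). With the filter applied again, the first call was lost without mESC replicate 1 or NPC replicate 1, and the second without NC replicate 1 or either NPC library. With the tested genes kept the same, each call was lost without any 1 of the 6 libraries. Its difference in NC against mESC, 0.53 ± 0.57 (adjusted p = 0.449), was negative with quantile normalization or without mESC replicate 2. Gdf1 lies within the span of Cers1 on the same strand, and Cers1 had between 7.13 and 18.6 TPM, so reads of the shared transcript could count to either gene.

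Gdf9, best known as an oocyte ligand, had a listed 0 and 0.184 TPM in mESC, 1.10 and 1.69 TPM in NPC and 3.47 and 4.48 TPM in NC. It was higher at each step, by 1.13 ± 0.27 in NPC against mESC (adjusted p = 0.0172) and by 1.06 ± 0.27 in NC against NPC (adjusted p = 0.0332), and by 2.19 ± 0.27 in NC against mESC (adjusted p = 0.000742). The first call was lost without either mESC library or NPC replicate 2 (adjusted p up to 0.114), and the second without any 1 library (up to 0.202). Bmp2, a close relative of Bmp4, had 1.88 and 0.317 TPM in mESC, 5.43 and 4.57 TPM in NPC and 1.73 and 3.38 TPM in NC. The gene passed as higher in NPC against mESC (1.62 ± 0.44, adjusted p = 0.0262), a call lost without mESC replicate 2 or either NPC library (adjusted p 0.0904 to 0.13). Beside it, the sum of 5 endoderm markers was 88.7 and 21.3 TPM in mESC, 179.9 and 123 TPM in NPC and 26.1 and 51.8 TPM in NC, with Sox17 and Foxa2 higher in NPC against mESC and no marker at 0 in every library of a stage, and its part was not tested. Bmp8a and Bmp8b, neighbouring paralogs at 2.38 TPM or less, were lower in NPC and in NC than in mESC. Their calls in NPC against mESC were lost without either NPC library, that of Bmp8b also without either mESC library (adjusted p up to 0.107 and 0.182). In NC against mESC they were lost without NC replicate 1 or mESC replicate 1, that of Bmp8a also without NPC replicate 1 and that of Bmp8b without mESC replicate 2 (adjusted p up to 0.085 and 0.106). They share 8.74% and 5.50% of their 50-base stretches. Bmp6, at 1.07 to 4.73 TPM, passed in no comparison, and 5.74% of its exon bases are overlapped by Txndc5 on the opposite strand, at 113 to 175 TPM. The strand setting of the quantification is not stated in the labels.

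Activin and TGF-beta ligands were higher in NC than in NPC for 4 of the 6 genes of their group, beside 15.2% of all tested genes. Inhba, the activin A subunit, had 0.457 TPM and a listed 0 in mESC, 0.441 and 0.733 TPM in NPC and 5.85 and 9.0 TPM in NC. Both NC libraries lay above all 4 others, whose values overlapped. The gene was higher by 2.39 ± 0.32 in NC against NPC (adjusted p = 0.00542) and by 2.78 ± 0.32 in NC against mESC (adjusted p = 0.000571). Inhbb, the activin B subunit, had 13.2 and 8.47 TPM in mESC, 0.0619 TPM and a listed 0 in NPC and 8.17 and 4.41 TPM in NC. Its NPC values were the lowest, with a change of -3.49 ± 0.35 in NPC against mESC (adjusted p = 0.000597) and of 2.77 ± 0.35 in NC against NPC (adjusted p = 0.00473). In NC against mESC the difference of Inhbb, -0.72 ± 0.35, did not pass (adjusted p = 0.121) and passed as lower with FPKM, with either other scaling and without NC replicate 1 (adjusted p 0.0124 to 0.0487). The NC against NPC calls of Inhba and Inhbb were lost without NPC replicate 1 (adjusted p up to 0.0617 and 0.0549).

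Tgfb1 showed the same dip, with 12.2 and 7.20 TPM in mESC, 2.32 and 2.34 TPM in NPC and 7.11 and 10.3 TPM in NC. Its changes were -1.65 ± 0.32 in NPC against mESC (adjusted p = 0.0076) and 1.52 ± 0.32 in NC against NPC (adjusted p = 0.0178), and mESC and NC overlapped. The first call was lost without mESC replicate 1 or either NPC library (adjusted p up to 0.0578) and the second without NC replicate 2 or either NPC library (up to 0.121). Tgfb2 had 3.07 and 1.72 TPM in mESC, 3.52 and 7.68 TPM in NPC and 25.6 and 25.3 TPM in NC, where it was the highest ligand of its group. It was higher in NC against NPC by 2.08 ± 0.37 (adjusted p = 0.0111) and in NC against mESC by 2.99 ± 0.37 (adjusted p = 0.000749). The call against NPC was lost without either NC library or NPC replicate 1 (adjusted p up to 0.0832). Tgfb3 had 0.212 and 0.141 TPM in mESC, 6.52 and 6.88 TPM in NPC and 10.8 and 12.7 TPM in NC, higher by 2.71 ± 0.24 in NPC against mESC (adjusted p = 0.000364) and by 3.44 ± 0.24 in NC against mESC (adjusted p = 7.85e-05), with all 3 groups apart. Its difference in NC against NPC, 0.73 ± 0.24, did not pass (limma adjusted p = 0.0693). The summed level of the 6 ligands, led by Nodal in mESC, by Tgfb3 or Tgfb2 in NPC and by Tgfb2 in NC, was 96.2 and 65.1 TPM in mESC, 12.9 and 17.6 TPM in NPC and 57.9 and 62.0 TPM in NC.

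Fibroblast markers moved with this group of ligands in NC. The sum of Col1a1, Col1a2, Col3a1, Dcn, Lum, Pdgfra, Pdgfrb, Postn, Acta2 and Tagln was 151 and 87.2 TPM in mESC, 76.2 and 107 TPM in NPC and 1031 and 1156 TPM in NC. Of these 10, 9 were higher in NC against NPC, and none was at 0 in an NC library. Their part in the levels of Inhba, Tgfb1, Tgfb2, Tgfbi and Bmp1 in NC was not tested.

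Chrd and Grem1, which encode secreted BMP antagonists, were higher in NC against NPC and against mESC. Grem1, or gremlin 1, had a listed 0 and 0.0249 TPM in mESC, 0.361 and 0.813 TPM in NPC and 2.79 and 1.81 TPM in NC, higher in NC against NPC by 1.06 ± 0.28 (adjusted p = 0.0358) and in NC against mESC by 1.69 ± 0.28 (adjusted p = 0.00239). The call against NPC was lost without any 1 library other than NC replicate 2. It was also lost with a pseudocount of 0.1, no filter, quantile normalization, a replicate block or a fit of these groups alone.

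Chrd, or chordin, which binds BMPs and keeps them from their receptors (chr16:20733127-20742384), had 6.40 and 3.67 TPM in mESC, 6.96 and 7.57 TPM in NPC and 30.0 and 21.9 TPM in NC. Both NC libraries lay above the other 4. It was higher by 1.69 ± 0.30 in NC against NPC (adjusted p = 0.0106), a call lost without NC replicate 1 or either NPC library (adjusted p up to 0.095), and by 2.18 ± 0.30 in NC against mESC (adjusted p = 0.00109). Thpo overlaps 3.82% of its exon bases on the opposite strand, at 1.45 to 6.77 TPM. Fst, or follistatin, which binds activins, was instead highest in NPC, with 3.81 and 1.95 TPM in mESC, 29.5 and 20.7 TPM in NPC and 9.09 and 12.9 TPM in NC. The gene was higher by 2.77 ± 0.33 in NPC against mESC (adjusted p = 0.00121) and by 1.65 ± 0.33 in NC against mESC (adjusted p = 0.00563), and its difference of -1.12 ± 0.33 in NC against NPC missed the threshold (adjusted p = 0.052) and passed with FPKM, with either other scaling and without either mESC library (adjusted p 0.0208 to 0.0387). Nog, or noggin, stayed between 0.831 and 4.34 TPM and passed in no comparison. Bmper, a chordin-like protein, passed in NC against mESC alone (1.24 ± 0.43, limma adjusted p = 0.0441). It had 5.79 and 4.38 TPM in NC against 2.94 and 0.663 TPM in mESC. That call was lost without any 1 library other than mESC replicate 1. It was also lost with a pseudocount of 0.1, no filter, FPKM, either other scaling or a fit of these groups alone.

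Bmp1 is a BMP in name only. It encodes a metalloprotease that cleaves chordin and procollagens (chr14:70474557-70520260). It had 11.9 and 5.06 TPM in mESC, 45.8 and 50.9 TPM in NPC and 86.6 and 180.2 TPM in NC, the highest level of its group in NPC and NC, and the stages did not overlap. Its level was higher by 2.48 ± 0.44 in NPC against mESC (adjusted p = 0.0055), a call lost without mESC replicate 2 (adjusted p = 0.0561), and by 3.83 ± 0.44 in NC against mESC (adjusted p = 0.000552). Its difference of 1.35 ± 0.44 in NC against NPC did not pass (adjusted p = 0.0669), and passed without NC replicate 1 or either mESC library (adjusted p 0.0413 to 0.0473).

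**Figure D4:**
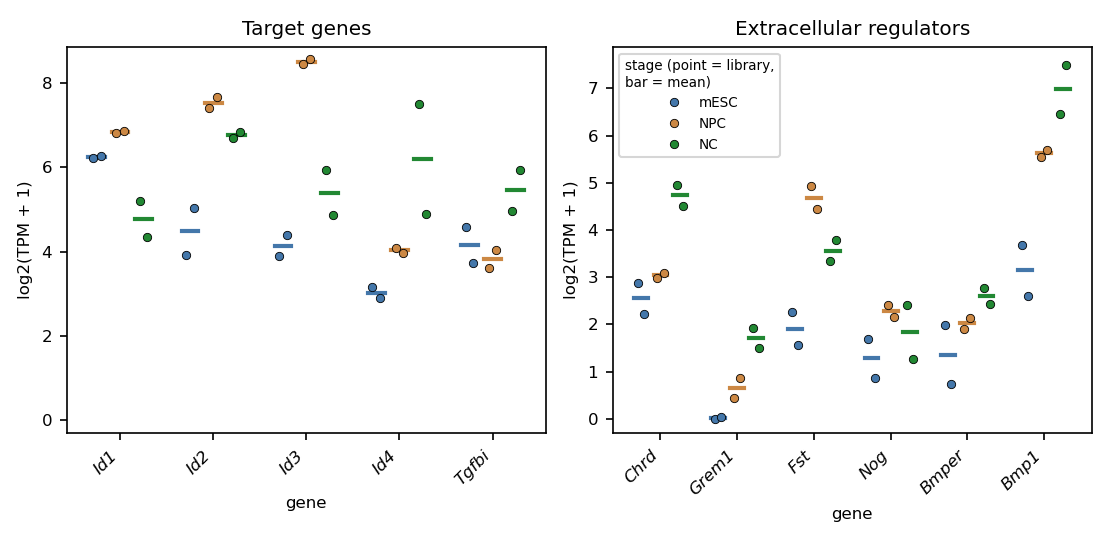
Target genes (left) and secreted regulators (right) by stage as log2(TPM + 1), with a point for each library and a bar for the mean of 2 libraries (blue mESC, orange NPC, green NC). Id2 and Id3 are highest in NPC, Id4 splits the NC libraries (178 and 28.7 TPM), and Chrd, Grem1 and Bmp1 are highest in NC.

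Receptor genes were higher after the stem cell stage in each case that passed. Tgfbr1, the type I receptor for TGF-beta (chr4:47353222-47414931), had 14.5 and 12.6 TPM in mESC, 89.7 and 89.1 TPM in NPC and 84.3 and 83.2 TPM in NC. The 4 later libraries lay close together and far above both mESC libraries. It was higher by 2.64 ± 0.14 in NPC against mESC (adjusted p = 6.19e-05) and by 2.54 ± 0.14 in NC against mESC (adjusted p = 3.7e-05), with -0.09 ± 0.14 in NC against NPC (adjusted p = 0.672). Bmpr1a, the main type I BMP receptor of early development, had 39.7 and 29.0 TPM in mESC, 74.0 and 74.3 TPM in NPC and 46.9 and 42.4 TPM in NC. The gene passed as higher in NPC against mESC (1.10 ± 0.18, adjusted p = 0.00417) and lower in NC against NPC (-0.72 ± 0.18, adjusted p = 0.0324), a call lost without any 1 of the 4 NC and NPC libraries (adjusted p up to 0.182). Bmpr1b, a type I BMP receptor of neural and skeletal tissue, reached 2.93 and 5.76 TPM in NPC, against 0.830 and 0.490 TPM in mESC, and missed the threshold (1.64 ± 0.54, adjusted p = 0.0503). Acvr1, a further type I receptor, passed in NC against mESC alone (1.13 ± 0.34, adjusted p = 0.0268), with 12.1 and 15.6 TPM in NC against 8.31 and 3.89 TPM in mESC. That call was lost without any 1 library other than mESC replicate 1, and with median-of-ratios scaling or quantile normalization (adjusted p up to 0.164). The type I receptors summed to 128 and 76.6 TPM in mESC, 208 and 219 TPM in NPC and 216 and 200.2 TPM in NC.

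All 4 type II receptors were higher in NC against mESC, beside 37.8% of all tested genes. Acvr2b, a receptor for activin and Nodal and the highest of the group (chr9:119402444-119433501), had 68.6 and 58.5 TPM in mESC, 141 and 144 TPM in NPC and 98.5 and 112 TPM in NC. NPC was above NC and NC above mESC, without overlap. The gene was higher by 1.16 ± 0.14 in NPC against mESC (adjusted p = 0.00136) and by 0.72 ± 0.14 in NC against mESC (adjusted p = 0.00539), and its difference of -0.44 ± 0.14 in NC against NPC did not pass as deposited (adjusted p = 0.0691) but passed with FPKM, median-of-ratios scaling or quantile normalization and without either mESC library (adjusted p 0.0185 to 0.0494). Acvr2a, its paralog, had 7.35 and 5.96 TPM in mESC, 24.7 and 29.6 TPM in NPC and 45.2 and 43.3 TPM in NC, higher by 1.88 ± 0.19 in NPC against mESC (adjusted p = 0.000594) and by 2.57 ± 0.19 in NC against mESC (adjusted p = 9.77e-05). Its call in NC against NPC (0.69 ± 0.19, adjusted p = 0.0412) was lost without any 1 NC or NPC library and with each other scaling (adjusted p up to 0.27). Orc4 overlaps 7.84% of its exon bases on the opposite strand, at 26.5 to 63.3 TPM.

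Bmpr2, the type II receptor for BMPs, had 10.4 and 9.93 TPM in mESC, 21.1 and 22.4 TPM in NPC and 39.7 and 42.4 TPM in NC, a step up at each stage with no overlap. Its level was higher by 1.03 ± 0.16 in NPC against mESC (adjusted p = 0.00351), by 0.89 ± 0.16 in NC against NPC (adjusted p = 0.0121) and by 1.91 ± 0.16 in NC against mESC (adjusted p = 0.000162), and the middle call was lost without either NPC library (adjusted p up to 0.119). Tgfbr2, the type II receptor for TGF-beta, had 5.25 and 1.42 TPM in mESC, 10.6 and 7.25 TPM in NPC and 15.2 and 22.9 TPM in NC. It passed in NC against mESC (2.34 ± 0.48, adjusted p = 0.00583; 0.0538 without NC replicate 2) and not in NPC against mESC (1.33 ± 0.48, adjusted p = 0.0667), where it passed without mESC replicate 1 (0.014 and 0.0311). Tgfbr3, or betaglycan, a co-receptor for TGF-beta and inhibin, peaked in NPC, with 2.74 and 1.06 TPM in mESC, 18.6 and 10.5 TPM in NPC and 2.37 and 4.72 TPM in NC, where mESC and NC overlapped. It was higher by 2.44 ± 0.44 in NPC against mESC (adjusted p = 0.00596) and lower by -1.78 ± 0.44 in NC against NPC (adjusted p = 0.0309). The first call was lost without NPC replicate 1 or mESC replicate 2 (adjusted p up to 0.0649) and the second without any 1 library (up to 0.197).

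Of the 8 SMAD genes, 7 were higher and 1 lower in NPC against mESC, beside 26.0% and 14.0% of all tested genes, and the call of Smad2 was lost in 12 of 19 alternatives. On the log2(TPM + 1) scale, which understates the change of the low Smad9, Smad3 (chr9:63646767-63757994) changed most among the receptor SMADs in NPC against mESC. It had 9.04 and 11.2 TPM in mESC, 75.5 and 72.7 TPM in NPC and 26.2 and 31.2 TPM in NC, and the 3 stages did not overlap. The gene was higher by 2.76 ± 0.18 in NPC against mESC (adjusted p = 0.000123) and by 1.42 ± 0.18 in NC against mESC (adjusted p = 0.00084), and lower by -1.34 ± 0.18 in NC against NPC (adjusted p = 0.00537; lost without either NPC library, up to 0.0722). Smad2, which carries the same signals, had 40.5 and 38.5 TPM in mESC, 61.4 and 53.3 TPM in NPC and 63.4 and 72.0 TPM in NC. The ratio of Smad3 to Smad2 TPM was 0.223 and 0.292 for mESC, 1.23 and 1.36 for NPC, and 0.413 and 0.434 for NC, so Smad3 exceeded Smad2 in the NPC libraries alone. Smad2 was higher in NPC against mESC by 0.52 ± 0.15 (adjusted p = 0.0323), a call lost without any 1 of its 4 libraries, with FPKM and with each other scaling (adjusted p up to 0.226), and in NC against mESC by 0.76 ± 0.15 (adjusted p = 0.00512).

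Among the SMADs behind BMP receptors Smad5 was the most abundant in all libraries but NC replicate 2, where Smad1 was. Smad5 had 20.8 and 20.7 TPM in mESC, 74.6 and 82.1 TPM in NPC and 71.2 and 66.9 TPM in NC (1.87 ± 0.14 in NPC against mESC, adjusted p = 0.00019). Smad1 had 19.0 and 17.2 TPM in mESC, 38.9 and 47.0 TPM in NPC and 60.5 and 70.1 TPM in NC (1.20 ± 0.17 in NPC against mESC, adjusted p = 0.00235). Both were also higher in NC against mESC, Smad5 by 1.69 ± 0.14 (adjusted p = 0.00014) and Smad1 by 1.79 ± 0.17 (adjusted p = 0.000258). The call of Smad1 in NC against NPC (0.60 ± 0.17, adjusted p = 0.0468) was lost without any 1 library and in 7 further settings (adjusted p up to 0.3). Smad9, the least abundant, had a listed 0 and 0.117 TPM in mESC, 2.16 and 1.24 TPM in NPC and 0.452 and 0.118 TPM in NC. It was higher in NPC against mESC (1.33 ± 0.28, adjusted p = 0.0107) and lower in NC against NPC (-1.06 ± 0.28, adjusted p = 0.0371). Its first call was lost without NPC replicate 1 or either mESC library (adjusted p up to 0.0726) and its second without any 1 library (up to 0.187).

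Smad4, the common partner and the most abundant of the group, had 60.1 and 58.8 TPM in mESC, 114 and 105 TPM in NPC and 77.0 and 93.5 TPM in NC. The gene passed as higher in NPC against mESC (0.87 ± 0.15, adjusted p = 0.00447; 0.0516 without NPC replicate 1) and in NC against mESC (0.51 ± 0.15, adjusted p = 0.0231). The second call was lost without any 1 library other than NC replicate 1 and with FPKM or either other scaling (adjusted p up to 0.286). The inhibitory SMADs went opposite ways in NPC against mESC. Smad7 had 46.6 TPM in both mESC libraries, 10.3 and 10.7 TPM in NPC and 9.64 and 14.1 TPM in NC, lower by -2.05 ± 0.22 in NPC against mESC (adjusted p = 0.000721) and by -1.91 ± 0.22 in NC against mESC (adjusted p = 0.000528), with the later stages overlapping. Its difference in NC against NPC, 0.14 ± 0.22 (adjusted p = 0.678), turned negative with FPKM, quantile normalization or without NC replicate 2. Smad6, the inhibitor tied to BMP signalling, had 3.42 and 5.38 TPM in mESC, 12.1 and 14.9 TPM in NPC and 3.07 and 3.78 TPM in NC, higher by 1.44 ± 0.28 in NPC against mESC (adjusted p = 0.00786) and lower by -1.71 ± 0.28 in NC against NPC (adjusted p = 0.00898). The first call was lost without NPC replicate 2 (adjusted p up to 0.0756) and the second without either NPC library (up to 0.0795).

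**Figure D5:**
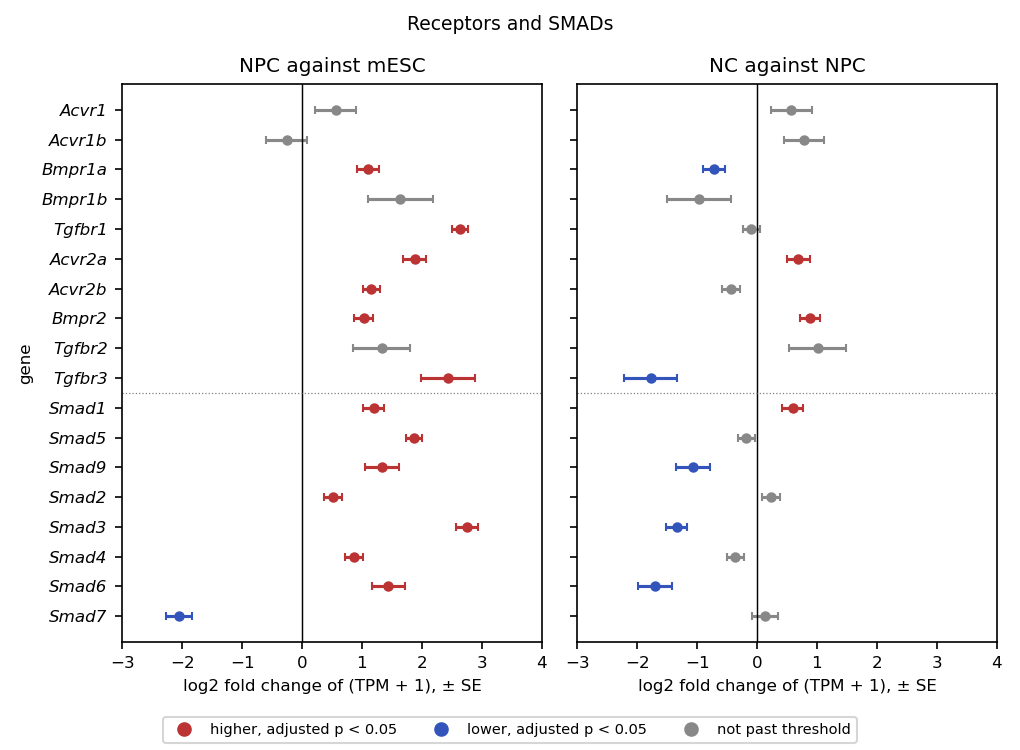
Log2 fold change of TPM + 1 with its SE for 9 receptors, Tgfbr3 and the 8 SMADs in NPC against mESC (left) and NC against NPC (right), red for higher and blue for lower at an adjusted p under 0.05, grey for neither. On the left 13 of 18 points are red and Smad7 alone is blue, beside 26.0% higher and 14.0% lower over all tested genes. On the right 3 are red and 5 blue, beside 15.2% and 10.1%. Each coloured point on the right lost its call in at least 1 alternative.

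The Id genes encode small proteins that bind and block helix-loop-helix factors, and they are direct targets of BMP-activated SMADs. The sum over Id1 to Id4 was 109 and 133 TPM in mESC, 639 and 706 TPM in NPC and 375 and 190 TPM in NC. Id3 (chr4:136143497-136145755) had 13.8 and 20 TPM in mESC, 345 and 377 TPM in NPC and 59.8 and 28.1 TPM in NC, so NPC stood far above both other stages. Its level was higher by 4.36 ± 0.35 in NPC against mESC (adjusted p = 0.000255) and lower by -3.10 ± 0.35 in NC against NPC (adjusted p = 0.00368; 0.0514 without NPC replicate 1). In NC against mESC it was higher by 1.26 ± 0.35 (adjusted p = 0.0202), a call lost without NC replicate 1 or either mESC library and with FPKM or either other scaling (adjusted p up to 0.156). Id2 (chr12:25093801-25096092) had 14.2 and 31.6 TPM in mESC, 167 and 199.7 TPM in NPC and 101 and 114 TPM in NC, with no overlap. It was higher by 3.04 ± 0.34 in NPC against mESC (adjusted p = 0.00088) and by 2.28 ± 0.34 in NC against mESC (adjusted p = 0.00159). Its difference in NC against NPC was -0.76 ± 0.34 (adjusted p = 0.149), and passed without either mESC library and in the fit of these 2 groups alone (adjusted p 0.0185 to 0.0375).

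Id1 (chr2:152736251-152737410) was the leading Id gene in mESC, with 73.7 and 75.3 TPM there, 111 and 115 TPM in NPC and 35.8 and 19.3 TPM in NC. The stages did not overlap. Its difference in NPC against mESC, 0.59 ± 0.27, did not pass (adjusted p = 0.126), and it passed without either NC library or in a fit of these groups alone (adjusted p 0.0129 to 0.0146). It was lower by -2.06 ± 0.27 in NC against NPC (adjusted p = 0.00503; 0.0583 without NPC replicate 1) and by -1.46 ± 0.27 in NC against mESC (adjusted p = 0.00381). The ratio of Id3 to Id1 TPM was 0.187 and 0.266 for mESC, 3.12 and 3.27 for NPC, and 1.67 and 1.45 for NC. Id1 was thus the more abundant of the pair in both mESC libraries and Id3 in the 4 others.

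Id4 (chr13:48261427-48264036) had 7.88 and 6.42 TPM in mESC, 16.0 and 14.7 TPM in NPC and 178 and 28.7 TPM in NC. Both NC libraries were above all others, but they differed from each other more than either mESC or NPC pair did. It was higher in NC against mESC by 3.17 ± 0.74 (adjusted p = 0.00998), a call lost without either mESC library (adjusted p up to 0.102). In NPC against mESC it did not pass (1.01 ± 0.74, adjusted p = 0.324), and passed without either NC library or in a fit of these groups alone (0.00937 to 0.0182). Its difference of 2.16 ± 0.74 in NC against NPC did not pass (limma adjusted p = 0.0765), and passed with a replicate block (0.0438) and without NC replicate 2. NC replicate 1 was also the higher of the pair for Aldh1l1 (59.3 against 1.89 TPM in NC replicate 2), Fabp7 (792 against 164 TPM) and Hes5 (131 against 13.7 TPM). The neural progenitor markers Pax6 (78.5 against 33.5 TPM) and Sox1 (14.0 against 9.89 TPM) went the same way, and Nes the other way (84.2 against 119.8 TPM). The astrocyte marker S100b hardly differed (0.349 and 0.341 TPM). Aldh1l1 also had 16.5 and 5.96 TPM in mESC. The sum of the astrocyte markers Gfap, Aqp4, Aldh1l1, S100b and Slc1a3 was 157 TPM in NC replicate 1 and 48.8 TPM in NC replicate 2, beside 72.2 and 77.7 TPM in NPC and 34.0 and 17.5 TPM in mESC, with Aqp4 listed at 0 in NC replicate 2. Their part in the Id4 values was not tested.

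The upstream window of Id4 is shown as that of the target gene that split the NC libraries, and it holds GGCGCC, the GC-rich SMAD element, once, in capitals. It is chr13:48260866-48261115 on the plus strand (GRCm38.p6, RefSeq, 5′ to 3′).
Id4: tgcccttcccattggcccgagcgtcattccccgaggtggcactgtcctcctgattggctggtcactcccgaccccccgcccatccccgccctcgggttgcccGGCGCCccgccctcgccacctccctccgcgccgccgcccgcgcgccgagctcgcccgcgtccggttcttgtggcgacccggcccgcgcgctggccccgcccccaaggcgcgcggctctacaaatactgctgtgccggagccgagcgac
The element starts 148 bases before the RefSeq start. It was found in 3149 of 32851 windows over all genes (9.59%) and in 11 of 49 windows of pathway genes (22.4%), those of Bmpr1a, Bmpr2, Chrd, Gdf1, Grem1, Id2, Id4, Smad5, Smad9, Tgfbi and Tgfbr1. These 11 genes did not move as one: in NC against NPC Chrd, Grem1, Gdf1, Bmpr2 and Tgfbi were higher, Bmpr1a and Smad9 lower, and Id2, Id4, Smad5 and Tgfbr1 did not pass. The Gdf1 match lay at chr8:70315525-70315774, and the window nearer its listed start, chr8:70329515-70329764, held none. Other windows of Smad5 and Tgfbr1 also held none. The matching windows of Bmpr1a, Bmpr2, Id2, Smad5 and Tgfbi overlap annotated exons. Base composition was not matched between the windows compared.

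Tgfbi, a matrix protein induced by TGF-beta (chr13:56609603-56639339), had 22.8 and 12.2 TPM in mESC, 11.3 and 15.5 TPM in NPC and 30.2 and 60.0 TPM in NC. NC lay above the overlapping mESC and NPC values. The gene was higher by 1.62 ± 0.41 in NC against NPC (adjusted p = 0.0316) and by 1.30 ± 0.41 in NC against mESC (adjusted p = 0.0307). The first call was lost without NC replicate 2, either NPC library or either mESC library (adjusted p up to 0.192), and the second without NC replicate 2, either NPC library or mESC replicate 2 and with FPKM or either other scaling (up to 0.211).

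A wider list of 61 further pathway genes, chosen by role, had 48 tested members. In NPC against mESC 20 were higher and 10 lower, in NC against NPC 10 and 7, and in NC against mESC 25 and 11, with medians of 0.60, 0.30 and 0.98 on the log2 scale. These are 62.5%, 35.4% and 75.0% of the 48, beside 40.0%, 25.3% and 59.9% of all tested genes, whose medians were 0.18, 0.11 and 0.31. The repulsive guidance molecules Rgma and Rgmb, which are BMP co-receptors, had the largest rises of this list in NC against mESC. Rgma had 0.880 and 0.603 TPM in mESC, 46.3 and 42.7 TPM in NPC and 159 and 70.6 TPM in NC, higher by 4.71 ± 0.37 in NPC against mESC (adjusted p = 0.000223) and by 5.95 ± 0.37 in NC against mESC (adjusted p = 5.07e-05). Rgmb had 6.69 and 4.06 TPM in mESC, 33.9 and 45.1 TPM in NPC and 255 and 332 TPM in NC, higher by 2.86 ± 0.26 in NC against NPC (adjusted p = 0.00308) and by 5.55 ± 0.26 in NC against mESC (adjusted p = 2.63e-05). These levels exceeded those of every receptor gene among the 61 in the same NC libraries for Rgmb, and for Rgma in NC replicate 1.

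Msx1 and Msx2, homeobox targets of BMP signalling, followed Id3 and Bmp7 in being highest in NPC. Msx1 had 1.22 and 0.522 TPM in mESC, 51.6 and 98.3 TPM in NPC and 13.0 and 14.9 TPM in NC, higher by 5.30 ± 0.35 in NPC against mESC (adjusted p = 0.000131) and lower by -2.27 ± 0.35 in NC against NPC (adjusted p = 0.00769). Msx2 had 2.25 and 1.16 TPM in mESC, 9.13 and 17.3 TPM in NPC and 0.499 and 1.11 TPM in NC, lower by -2.94 ± 0.39 in NC against NPC (adjusted p = 0.0053). Ski, a repressor of SMAD complexes, was lower in NC against NPC by -1.21 ± 0.18 (adjusted p = 0.00683), with 60.8 and 66.6 TPM in NC against 174 and 126 TPM in NPC. Zeb2, a SMAD-binding repressor, was higher in NPC against mESC by 3.39 ± 0.41 (adjusted p = 0.00123), with 57.1 and 60.6 TPM in NPC against 2.56 and 8.22 TPM in mESC. Msx1 is also one of the roof plate markers given above.

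Nbl1, a DAN-family antagonist like gremlin 1, had 1.65 and 1.39 TPM in mESC, 4.04 and 6.92 TPM in NPC and 27.7 and 25.3 TPM in NC (2.12 ± 0.29 in NC against NPC, adjusted p = 0.00537, and 3.45 ± 0.29 in NC against mESC, adjusted p = 0.000146). Among the genes that were lower, Eng, or endoglin, a co-receptor known from endothelium, had 0.986 and 1.56 TPM in NPC and 0.443 and 1.74 TPM in NC, against 28.3 and 26.4 TPM in mESC (-3.65 ± 0.36 in NPC against mESC, adjusted p = 0.000543, and -3.83 ± 0.36 in NC against mESC, adjusted p = 0.00024). Beside it, 5 endothelial markers summed to 8.16 and 7.71 TPM in NPC and 2.46 and 9.98 TPM in NC, against 46.9 and 27.3 TPM in mESC, and their part was not tested. Of these 5, Pecam1 and Tek were lower in both comparisons, Pecam1 with 34.8 and 19.7 TPM of the mESC sums, and Cdh5, Kdr and Tie1 passed in no comparison. Amhr2, the receptor for anti-Müllerian hormone, was lower in NPC against mESC (-2.44 ± 0.25, adjusted p = 0.000664), with 0.514 and 0.356 TPM in NPC against 7.05 and 6.55 TPM in mESC. Pcsk6, a protease that processes Nodal precursors, was lower in NC against mESC (-2.36 ± 0.28, adjusted p = 0.000608), with 8.91 and 5.97 TPM in NC against 51.8 and 33.6 TPM in mESC.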

How the data were processed

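RNA of 6 libraries was sequenced on an Ion Proton after poly(A) enrichment and rRNA depletion, per the labels' protocols. Per the submitters' processing notes, the tools were StringTie 2.1.5, STAR 2.7.9a, cutadapt 3.4, DESeq2, FastQC and R 4.0.3 with mm10. Their order and settings, the annotation release and the strand setting were not found in those notes. The deposited tables are StringTie gene abundances with coverage (mean read depth), FPKM and TPM made by the authors. The most frequent ratio of coverage to FPKM gave the aligned Gb, and 38.3% to 39.7% of expressed genes lay at that ratio. Between 2 and 9 repeated gene ID lines per table were summed.

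From TPM, limma 3.58.1 (R 4.3.3, lmFit, eBayes with trend) was fitted to log2(TPM + 1) of all 6 libraries, two-sided and with no replicate block. The fit held the 20232 genes that reached 1 TPM in 2 or more libraries. The alternatives were a pseudocount of 0.1, no filter, FPKM, median-of-ratios scaling, quantile normalization, a replicate block, fits of the 2 groups compared and leaving out each library. Keeping the tested genes the same while leaving out a library was chosen after seeing the data. Genes and lists were chosen with earlier results of these data known. Given in full are genes past an absolute log2 fold change of 2 in any comparison and the most abundant of each role. GENCODE vM21 and RefSeq supplied overlaps and upstream windows (the printed windows hold no annotated exon). Proteins were not used here, and some items that the counts include are not reported here.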

Additional observations from a re-analysis of the deposited data

How the results depend on the processing

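Of 95 called pairs of a pathway gene and a comparison, 52 were kept in all alternatives that tested the gene, 43 were lost in at least 1 and 0 reversed. With no filter on low values, NC against NPC gave 5 higher and 5 lower pathway genes, 6 higher genes of the wider list, and 1972 higher and 1194 lower genes in all, against 13, 8, 10, 3079 and 2044. Fitting NC and NPC alone gave 8 higher pathway genes.

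Leaving out 1 library gave between 5 and 13 lower pathway genes in NPC against mESC (13 with all), 1 to 13 higher and 0 to 10 lower in NC against NPC, and 4 to 11 lower in NC against mESC (11 with all). The lowest values of 5 and 4 came without mESC replicate 1, since genes seen in mESC alone then miss the filter, and were 10 and 8 with the tested genes kept. In the wider list it gave 13 to 22 higher and 6 to 10 lower genes in NPC against mESC, and 1 to 11 higher and 2 to 7 lower in NC against NPC. Over all genes it gave 2665 to 5586 higher and 1367 to 3094 lower in NPC against mESC, and 209 to 3147 higher and 100 to 2117 lower in NC against NPC. A group left with 1 library is assumed to vary like the others.

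Signs were checked for called differences and, where neither group was listed at 0 in both libraries, for genes given in full. Other uncalled differences were not checked. The following 3 differences, which passed in no alternative, changed sign. Smad7 in NC against NPC was -0.013 with FPKM, -0.0647 with quantile normalization and -0.1133 to 0.3931 on leaving out a library. Tdgf1 in NC against NPC was -0.0464 to 0.304, and Gdf1 in NC against mESC was -0.0482 with quantile normalization and -0.109 to 1.1693, on leaving out a library. The cause was not tested.

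The replicate numbers gave no sign of pairing the samples, which these correlations cannot settle. The correlation of replicate differences was 0.045 between NPC and mESC, -0.070 between NC and NPC and -0.082 between NC and mESC. With a replicate block, 22 pathway genes were higher and 13 lower in NPC against mESC, 11 and 7 in NC against NPC, and 27 and 11 in NC against mESC. With it Id4 passed in NC against NPC (adjusted p = 0.0438), and the call of Smad2 in NPC against mESC was lost.

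Depth was only inferred, as aligned bases, so low TPM values carry an unknown counting error.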

Other observations

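Further genes of the wider list, chosen after their values were seen, are given here. Some split the NC libraries as Id4 did, in the other direction. Thbs1, which encodes an activator of latent TGF-beta, had 25.3 TPM in NC replicate 1 and 170.1 TPM in NC replicate 2, and Ctgf, a TGF-beta target, had 34.0 and 181 TPM. The latent TGF-beta binding proteins differed among themselves: Ltbp4 was lower in NPC against mESC (-2.31 ± 0.23, adjusted p = 0.000544), with 17.3 and 24.2 TPM in NPC against 121 and 92.4 TPM in mESC, while Ltbp1 was higher (2.74 ± 0.36, adjusted p = 0.00167), with 45.3 and 57.0 TPM in NPC against 8.09 and 5.66 TPM in mESC. Ltbp3 was also higher (2.59 ± 0.38, adjusted p = 0.00259), with 14.0 and 16.4 TPM in NPC against 2.88 and 0.847 TPM in mESC.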
